A study of Homo sapiens with 8 samples.

Results

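The p53 pathway target genes described here are 31 genes that are known to be transcribed more when the tumour suppressor p53 is active. They were chosen by gene symbol, and all 31 were found among the 23299 symbols kept from the deposited tables, each as a single entry. Polyadenylated RNA had been sequenced from 2 human fibroblast lines, called line 1 and line 2, that were transfected either with a SUPT4H1 siRNA, a small interfering RNA that lowers SUPT4H1 mRNA, or with a control siRNA that targets no gene. There were 2 samples for each siRNA in each line, so that 4 SUPT4H1 siRNA samples stood against 4 control siRNA samples. Both lines were labelled as fibroblasts of population controls, and all groups shared the same medium and the same lipid transfection. Neither the siRNA sequences nor the time between transfection and harvest were given in the labels. Nothing in the labels says that the 2 samples of a group came from cultures kept apart, so p-values speak only of how these samples vary, possibly for technical reasons.

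p53 is a transcription factor that is held low by the ubiquitin ligase MDM2 and its partner MDM4. When DNA damage or another stress frees p53, it binds response elements made of a pair of half-sites and raises genes for cell cycle arrest, apoptosis, DNA repair, metabolism and its own feedback control. CDKN1A, which encodes the cyclin-dependent kinase inhibitor p21, is the target most often used as a readout, and in fibroblasts the p53 and p21 axis is known for arrest and senescence. SUPT4H1 encodes SPT4, which forms with SPT5 the elongation factor DSIF that travels with RNA polymerase II.

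Promoter windows of 4 of these genes are shown because they carry, or lack, the sequence that p53 binds. Each runs from 250 bases before to 50 bases after a transcription start of RefSeq on GRCh38.p14, 5′ to 3′ on the strand of the gene, and capitals mark each match to the consensus p53 half-site of 10 bases. DDB2 (chr11:47214724-47215023, plus strand, window 2 of the gene) has a pair of half-sites, SESN1 (chr6:109008939-109009238, minus strand, window 3 of the gene) and PLK2 (chr5:58460037-58460336, minus strand) have 1 each, and CDKN1A (chr6:36678464-36678763, plus strand) has none in this window.
DDB2: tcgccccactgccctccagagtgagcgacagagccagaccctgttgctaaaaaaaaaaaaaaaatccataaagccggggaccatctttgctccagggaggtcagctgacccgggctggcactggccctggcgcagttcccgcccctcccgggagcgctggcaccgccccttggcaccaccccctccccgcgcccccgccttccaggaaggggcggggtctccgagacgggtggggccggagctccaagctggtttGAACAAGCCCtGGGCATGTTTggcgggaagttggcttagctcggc
SESN1: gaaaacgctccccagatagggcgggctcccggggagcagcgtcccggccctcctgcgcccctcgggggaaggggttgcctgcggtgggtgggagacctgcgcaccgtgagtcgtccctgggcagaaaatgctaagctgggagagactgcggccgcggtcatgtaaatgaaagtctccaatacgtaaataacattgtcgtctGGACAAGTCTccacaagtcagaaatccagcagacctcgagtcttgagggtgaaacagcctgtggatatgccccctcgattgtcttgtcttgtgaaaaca
PLK2: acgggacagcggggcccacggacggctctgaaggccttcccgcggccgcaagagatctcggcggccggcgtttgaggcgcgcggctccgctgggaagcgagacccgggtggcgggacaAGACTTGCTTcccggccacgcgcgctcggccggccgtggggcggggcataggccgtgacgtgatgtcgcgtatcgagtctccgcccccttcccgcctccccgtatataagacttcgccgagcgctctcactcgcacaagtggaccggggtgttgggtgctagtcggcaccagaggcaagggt
CDKN1A: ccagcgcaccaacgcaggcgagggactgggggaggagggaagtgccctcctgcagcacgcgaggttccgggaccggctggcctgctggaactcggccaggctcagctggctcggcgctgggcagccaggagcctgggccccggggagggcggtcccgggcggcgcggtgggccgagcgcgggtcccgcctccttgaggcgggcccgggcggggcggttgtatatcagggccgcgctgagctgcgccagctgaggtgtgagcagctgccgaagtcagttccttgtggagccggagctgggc
The known p53 response elements of CDKN1A lie further upstream, outside such a window.

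All levels are in FPKM, the unit of the deposited tables, in which fragment numbers are divided by the length of the transcript and by the size of the library. The number of fragments is not given in the files. Relative depth, read from the deposited intervals of genes with very few fragments, lay between 0.82 and 1.127 across the samples, with the first control siRNA library of line 1 set to 1. The deposited 95% intervals of the 31 genes had half-widths of 2.88 to 9.95% of the value. Each belongs to a single sample, and the sources used here do not state which errors it covers. Replicates of the same group differed in these genes by a median of 0.04 on the log2 scale and at most by 0.156, the largest gap being that of FBXW7. All 12 fibroblast markers examined were present, with sums of 15410 to 17110 FPKM in SUPT4H1 siRNA samples and 16710 to 17440 FPKM in control siRNA samples. Of the markers of other cell types, KRT19 at 3.56 FPKM and CD14 at 2.68 FPKM were above 1 FPKM, and EPCAM, CDH1, PECAM1, CDH5, CD3E, MLANA and MYOD1 were all under 0.1 FPKM. The 7 epithelial markers summed to 1.145 to 10.15 FPKM in SUPT4H1 siRNA samples and 0.706 to 5.654 FPKM in control siRNA samples, with KRT8 at 0.315 FPKM and KRT18 at 0.328 FPKM on average. The 3 muscle markers summed to 0.1479 to 0.4165 FPKM in SUPT4H1 siRNA samples and 0.6 to 1.194 FPKM in control siRNA samples, without overlap, DES at a mean of 0.569 FPKM being the highest of them. The part of these shifts in the results was not tested. In bulk RNA, a change in the kinds of cells and a change in RNA per cell cannot be told apart.

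SUPT4H1 mRNA stood at 1.37 and 1.43 FPKM in line 1 and 1.69 and 1.74 FPKM in line 2 after SUPT4H1 siRNA, against 25.6 and 25.6 FPKM in line 1 and 26.2 and 28.3 FPKM in line 2 after control siRNA. What remained was 5.46% of the control siRNA mean in line 1 and 6.3% of it in line 2. The log2 change was -3.42 (limma, adjusted p = 4.05e-11), which understates the fall because 1 is added to each FPKM value. With 0.1 added instead it was -4.01. SUPT5H, the gene of SPT5, differed by 0.08 on the log2 scale and missed the threshold over both lines (adjusted p = 0.0614, limma). It rose in line 2, by 0.15 (adjusted p = 0.0041, limma), and was at 0.02 in line 1, and the difference between the lines did not pass (adjusted p = 0.104, limma).

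After SUPT4H1 siRNA, 18 of the 31 targets rose, none fell, and 13 did not pass the test. The test was limma on log2(FPKM + 1) with the line as a block, adjusted by the method of Benjamini and Hochberg over all 11444 genes tested, at a threshold of 0.05. By the same rule 26.8% of all genes tested rose and 15.2% fell. Of the 13 targets that did not pass, CCNG1 was above 0 and TNFRSF10B and MDM4 were below 0 at an unadjusted p under 0.05. The changes were small: the largest rise was 1.59-fold, and 3 targets changed by at least 0.5 on the log2 scale, which 2.26% of all genes tested did. The median log2 change of the 31 targets was 0.17, against 0.03 for all genes tested, and 25 of the 31 lay above 0, as did 59.8% of all genes tested. Since the set was put together with results of these samples known, these counts are a description and not an independent test of its direction.

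**Figure D1:**
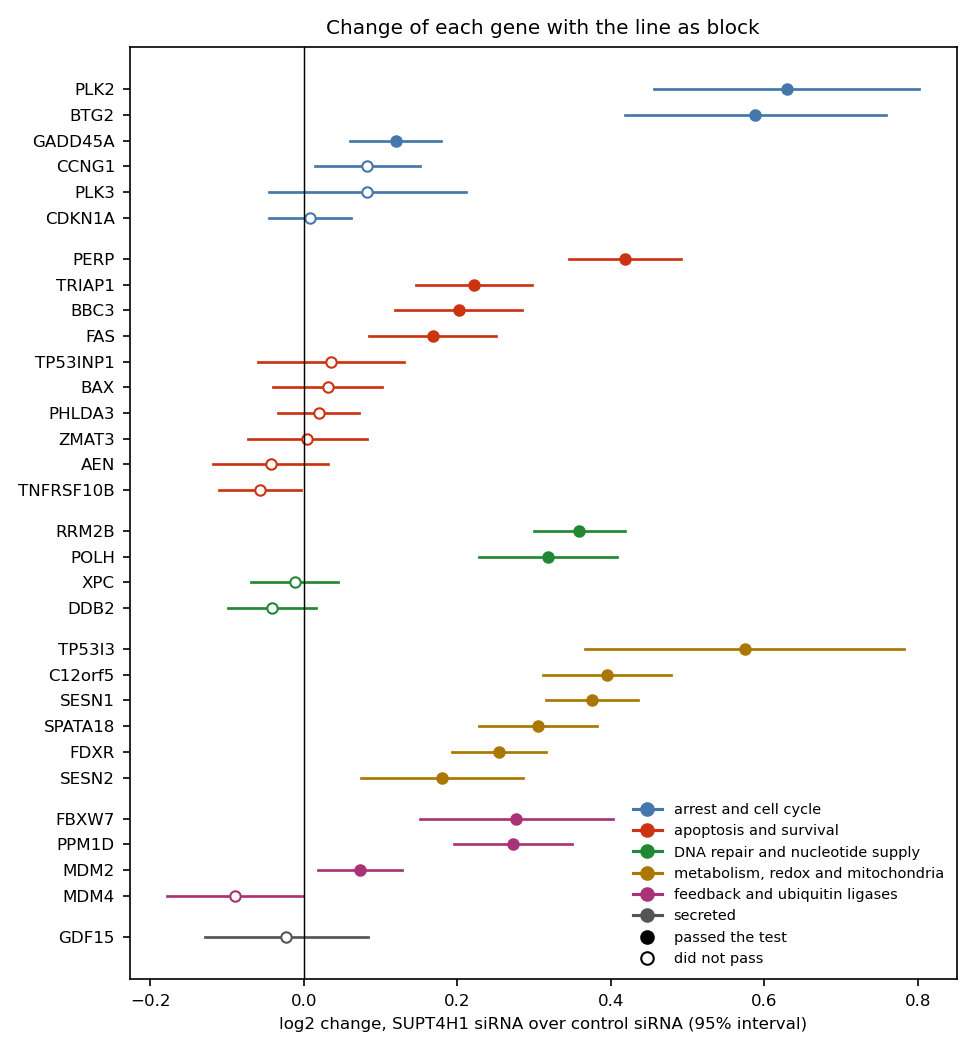
log2 change of each of the 31 genes (SUPT4H1 siRNA over control siRNA, on log2(FPKM + 1), x axis) with its 95% interval, from the fit to all 8 samples with the line as block. Genes are grouped by role and ordered by change within it, filled points passed the test at an adjusted p under 0.05 and open points did not. The 6 genes of metabolism are all filled, from 0.18 to 0.57, and CDKN1A is open at 0.01, where it lies at -0.03 after median-ratio scaling.

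The roles of the targets differed in their counts. All 6 genes of metabolism, redox and mitochondria rose, with a median log2 change of 0.34. Of the 4 feedback and ubiquitin ligase genes 3 rose (median 0.17), of the 6 arrest and cell cycle genes 3 rose (median 0.10), of the 4 genes of DNA repair and nucleotide supply 2 rose (median 0.15), and of the 10 genes of apoptosis and survival 4 rose (median 0.03). GDF15, the secreted target, did not pass. By the same rule 26.8% of all genes tested rose, and the median log2 change of all genes tested was 0.03. Without the line as block, 3 of the 6 metabolism genes rose, 2 of the 6 arrest genes and 2 of the 4 repair genes. In that fit 1 of the 10 apoptosis genes and none of the 4 feedback genes rose, beside 3.56% of all genes tested. Differences between the roles were not tested.

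CDKN1A (chr6:36644237-36655116 in hg19), the p21 gene, was the most abundant target and differed little between the siRNAs. It stood at 287.2 and 288.3 FPKM in line 1 and 277.9 and 280.5 FPKM in line 2 after SUPT4H1 siRNA, against 281.9 and 282.6 FPKM in line 1 and 281.1 and 282 FPKM in line 2 after control siRNA. In line 1 both SUPT4H1 siRNA samples lay above both control samples, and in line 2 both lay below them. The log2 change was 0.01 with a 95% interval of -0.05 to 0.06 (limma, adjusted p = 0.811), 0.03 in line 1 and -0.01 in line 2, and it was -0.03 after median-ratio scaling of the libraries. A p above the threshold does not show that the level was the same, and the interval gives the range of change that these samples allow. For 16 of the other targets the whole 95% interval lay above that of CDKN1A. CDKN1A had been singled out as flat when the set was chosen, so its place among the targets is a description.

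The 5 most abundant targets over all samples were CDKN1A (282.7 FPKM), CCNG1 (112.2 FPKM), BAX (103.6 FPKM), PHLDA3 (70.3 FPKM) and TNFRSF10B (34.2 FPKM). None of them passed the test, by which 26.8% of all genes tested rose and 15.2% fell. Whether passing depended on the level was not tested. The 18 targets that rose had means of 31.2 FPKM, that of GADD45A, or less. CDKN1A made up 25.8 and 26% of the summed FPKM of the 31 targets in line 1 and 27 and 27.1% in line 2 after SUPT4H1 siRNA, against 27.4 and 27.3% in line 1 and 29.6 and 29.2% in line 2 after control siRNA. The sum itself was 1114 and 1109 FPKM in line 1 and 1030 and 1035 FPKM in line 2 after SUPT4H1 siRNA, against 1027 and 1037 FPKM in line 1 and 949.9 and 965.7 FPKM in line 2 after control siRNA. The total of the targets was thus higher within each line after SUPT4H1 siRNA, while the share of CDKN1A in it was lower. Both follow by arithmetic from a flat CDKN1A beside rises in other targets, known when the set was chosen, and are no separate result.

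**Figure D2:**
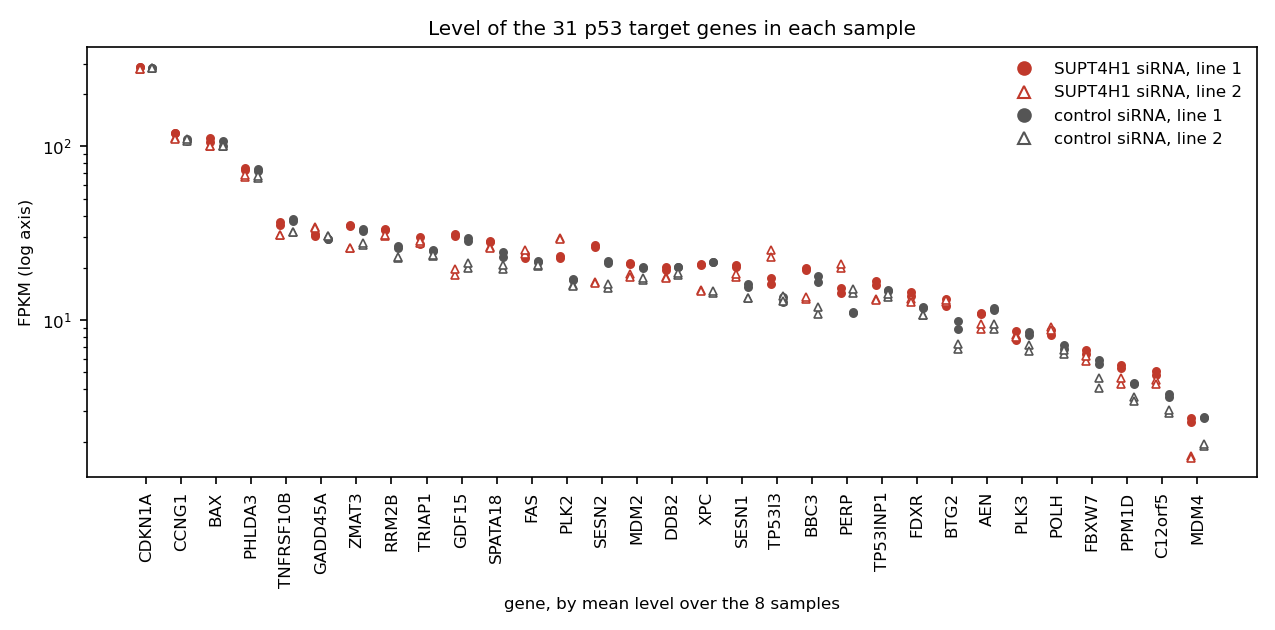
FPKM of the 31 genes in each of the 8 samples (log axis), ordered by mean level from CDKN1A at 282.7 to MDM4 at 2.24. Red symbols are SUPT4H1 siRNA samples and grey symbols are control siRNA samples, filled circles are line 1 and open triangles are line 2. For the 5 genes on the left the red and grey symbols lie close together, and for PLK2, TP53I3 and BTG2 they are apart.

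Among the arrest genes, PLK2, BTG2 and GADD45A rose. PLK2, a polo-like kinase that acts at centrosomes and in stress responses, had the largest rise of all 31 targets. It stood at 23.4 and 22.7 FPKM in line 1 and 29.6 and 29.2 FPKM in line 2 after SUPT4H1 siRNA, against 17.3 and 17 FPKM in line 1 and 15.9 and 15.8 FPKM in line 2 after control siRNA. The groups did not overlap, and the log2 change was 0.63 (SE 0.08, adjusted p = 2.7e-04 in limma). BTG2, an antiproliferative protein that binds the CCR4-NOT deadenylase, stood at 13.2 and 12.1 FPKM in line 1 and 12.6 and 13.1 FPKM in line 2 after SUPT4H1 siRNA, against 8.89 and 9.84 FPKM in line 1 and 6.85 and 7.34 FPKM in line 2 after control siRNA. Its SUPT4H1 siRNA samples all lay above all control samples, with a log2 change of 0.59 (adjusted p = 3.5e-04, limma).

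GADD45A, a damage-induced protein that interacts with PCNA and CDK1, averaged 32.5 ± 2.03 FPKM after SUPT4H1 siRNA and 29.8 ± 0.653 FPKM after control siRNA (SD, n = 4 each), a log2 change of 0.12 (adjusted p = 0.00618, limma). CCNG1, cyclin G1, averaged 115.5 ± 5.28 and 108.9 ± 2.02 FPKM in SUPT4H1 siRNA and control siRNA samples, a log2 difference of 0.08 that missed the threshold (adjusted p = 0.0553, limma). PLK3, a further polo-like kinase, did not pass either, at 0.08 (95% interval -0.05 to 0.21). By line, GADD45A passed in line 2, at 0.17, and not in line 1, at 0.07 (adjusted p = 0.0773, limma). Taken alone, CCNG1 rose in line 1, by 0.14 (adjusted p = 0.00435, limma), and PLK3 rose in line 2, by 0.20 (adjusted p = 0.015, limma), while the difference between the lines passed for neither (adjusted p = 0.0963 and 0.0891). CCNG1 passed in 3 of 18 alternatives, among them without the second control sample of line 2 (adjusted p = 0.0271, limma), and PLK3 in 1, that without the second SUPT4H1 siRNA sample of line 1 (adjusted p = 0.0439, limma).

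Among the genes of apoptosis and survival, PERP, TRIAP1, BBC3 and FAS rose. PERP (chr6:138409642-138428660 in hg19), a membrane protein of desmosomes that is tied to p53-dependent death, stood at 14.4 and 15.4 FPKM in line 1 and 19.9 and 21 FPKM in line 2 after SUPT4H1 siRNA, against 11 and 11.1 FPKM in line 1 and 14.4 and 15.2 FPKM in line 2 after control siRNA. It was higher within each line, by 0.40 in line 1 and 0.44 in line 2 on the log2 scale, and 0.42 over both (adjusted p = 2.21e-05, limma). TRIAP1, a small protein that favours survival and takes part in mitochondrial lipid transfer, rose by 0.22, with means of 28.6 ± 1.27 FPKM after SUPT4H1 siRNA and 24.4 ± 0.923 FPKM after control siRNA (SD, n = 4 each).

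BBC3, the BH3-only protein PUMA, stood at 19.4 and 20.04 FPKM in line 1 and 13.2 and 13.6 FPKM in line 2 after SUPT4H1 siRNA, against 16.6 and 17.9 FPKM in line 1 and 10.8 and 11.9 FPKM in line 2 after control siRNA. The lines differed in its level by more than the siRNAs did, and within each line both SUPT4H1 siRNA samples were the higher ones. Its log2 change was 0.20 (adjusted p = 0.00232 in limma, and 0.656 without the line as block). FAS, the death receptor, averaged 24.1 ± 1.1 FPKM after SUPT4H1 siRNA and 21.3 ± 0.636 FPKM after control siRNA (SD, n = 4 each), a log2 change of 0.17 (adjusted p = 0.00602, limma). By line, FAS passed in line 2, at 0.24, and not in line 1, at 0.09 (adjusted p = 0.0868, limma). FAS overlaps ACTA2, which stood at 109 FPKM with a log2 change of -0.02. The use of strand in counting is not stated, so reads of the 2 genes cannot be told apart where they overlap.

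The other 6 apoptosis genes did not pass, and their log2 changes lay between -0.06 and 0.03. BAX, the pore-forming effector of mitochondrial apoptosis, stood at 106.6 and 111.8 FPKM in line 1 and 100.1 and 100.3 FPKM in line 2 after SUPT4H1 siRNA, against 100.4 and 107.6 FPKM in line 1 and 100.7 and 101 FPKM in line 2 after control siRNA. Its groups overlapped in line 1, and its log2 change of 0.03 had an interval of -0.04 to 0.10. TNFRSF10B, the TRAIL receptor DR5, averaged 33.5 ± 2.93 FPKM after SUPT4H1 siRNA and 34.9 ± 3.17 FPKM after control siRNA (SD, n = 4 each), a log2 change of -0.06 (adjusted p = 0.0794, limma). AEN, a nuclease, was at -0.04 and TP53INP1, which promotes p53 phosphorylation and autophagy, at 0.03 on the log2 scale. Taken alone, TP53INP1 rose in line 1, by 0.135 (adjusted p = 0.0177, limma), and did not pass in line 2, at -0.065 (adjusted p = 0.169, limma). PHLDA3, a repressor of AKT, was at 0.02 and the RNA-binding zinc finger protein ZMAT3 at 0.004, and after median-ratio scaling BAX, PHLDA3 and ZMAT3 lay below 0, at -0.003, -0.015 and -0.029.

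Of the genes of DNA repair and nucleotide supply, RRM2B and POLH rose and XPC and DDB2 did not pass. RRM2B, the ribonucleotide reductase subunit p53R2 that supplies deoxynucleotides for repair, stood at 33.3 and 33 FPKM in line 1 and 30.6 and 30.8 FPKM in line 2 after SUPT4H1 siRNA, against 26.8 and 26.2 FPKM in line 1 and 22.8 and 23.1 FPKM in line 2 after control siRNA. All SUPT4H1 siRNA samples exceeded all control samples, with a log2 change of 0.36 (SE 0.03, adjusted p = 1.77e-05 in limma). POLH, the translesion polymerase eta, averaged 8.71 ± 0.36 FPKM after SUPT4H1 siRNA and 6.79 ± 0.305 FPKM after control siRNA (SD, n = 4 each), a log2 change of 0.32 (adjusted p = 3.08e-04, limma). POLH overlaps GTPBP2, which stood at 19.5 FPKM and fell by 0.21 on the log2 scale (adjusted p = 1.98e-04, limma).

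XPC and DDB2 both recognise damage in nucleotide excision repair. XPC stood at 21 and 20.9 FPKM in line 1 and 15 and 14.7 FPKM in line 2 after SUPT4H1 siRNA, against 21.6 and 21.8 FPKM in line 1 and 14.4 and 14.8 FPKM in line 2 after control siRNA. Its log2 difference was -0.01 (95% interval -0.07 to 0.05). DDB2, the gene with the pair of half-sites shown above, averaged 18.7 ± 1.38 FPKM after SUPT4H1 siRNA and 19.3 ± 1.07 FPKM after control siRNA (SD, n = 4 each), a log2 difference of -0.04 (95% interval -0.10 to 0.02, adjusted p = 0.219 in limma). After median-ratio scaling DDB2 was at -0.07 and passed the test (adjusted p = 0.0379, limma).

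The 6 targets of metabolism, redox and mitochondria all rose. For each of them all SUPT4H1 siRNA samples lay above the control samples of the same line, an order found in 28.8% of all genes tested. TP53I3 (chr2:24300303-24308085 in hg19), a quinone oxidoreductase also called PIG3, stood at 17.4 and 16.1 FPKM in line 1 and 25.4 and 23 FPKM in line 2 after SUPT4H1 siRNA, against 12.7 and 13.6 FPKM in line 1 and 13.7 and 12.8 FPKM in line 2 after control siRNA. Its log2 change was 0.57 (SE 0.09, adjusted p = 0.00117 in limma), and it missed the threshold without the line as block (adjusted p = 0.0545). C12orf5, which encodes the glycolysis regulator TIGAR, stood at 5.09 and 4.83 FPKM in line 1 and 4.52 and 4.3 FPKM in line 2 after SUPT4H1 siRNA, against 3.62 and 3.76 FPKM in line 1 and 2.92 and 3.03 FPKM in line 2 after control siRNA. The log2 change of C12orf5 was 0.40 (adjusted p = 6.82e-05, limma), which understates the change of a gene this low because 1 is added to each value.

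The sestrins SESN1 and SESN2 restrain the growth kinase mTORC1 under stress. SESN1, with 1 of the half-sites shown above, stood at 20.7 and 20.3 FPKM in line 1 and 17.7 and 18.3 FPKM in line 2 after SUPT4H1 siRNA, against 15.6 and 16.2 FPKM in line 1 and 13.3 and 13.4 FPKM in line 2 after control siRNA. It rose by 0.37 (SE 0.03, adjusted p = 1.46e-05 in limma), the smallest adjusted p among the 31 targets. SESN2 stood at 26.2 and 27.1 FPKM in line 1 and 16.7 and 16.3 FPKM in line 2 after SUPT4H1 siRNA, against 21.2 and 21.9 FPKM in line 1 and 15.2 and 16.2 FPKM in line 2 after control siRNA. It rose by 0.18 over both lines (adjusted p = 0.0134, limma), and most of the gap was seen in line 1.

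SPATA18, also called MIEAP and known for mitochondrial quality control, averaged 27.4 ± 1.28 FPKM after SUPT4H1 siRNA and 22.1 ± 2.25 FPKM after control siRNA (SD, n = 4 each), a log2 change of 0.30 (adjusted p = 1.66e-04, limma). FDXR, the mitochondrial ferredoxin reductase, averaged 13.6 ± 0.779 FPKM after SUPT4H1 siRNA and 11.3 ± 0.628 FPKM after control siRNA (SD, n = 4 each), a log2 change of 0.25 (adjusted p = 1.32e-04, limma). The 2 lines gave nearly the same change in FDXR, 0.25 in line 1 and 0.26 in line 2.

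**Figure D3:**
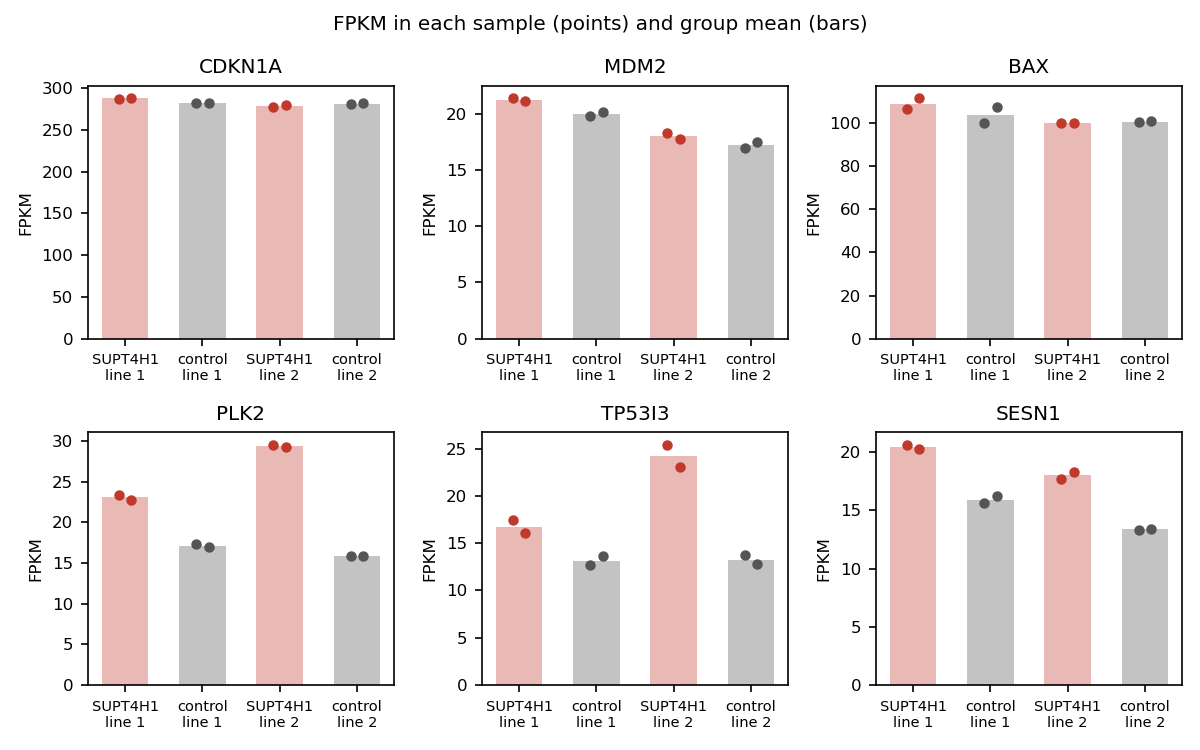
FPKM in each sample (points) and group means (bars from 0) of CDKN1A, MDM2, BAX, PLK2, TP53I3 and SESN1, with the 2 SUPT4H1 siRNA samples of a line (red) left of its 2 control siRNA samples (grey). CDKN1A stays between 277.9 and 288.3 FPKM in all 8 samples, and the PLK2 bar of line 2 is 29.4 FPKM after SUPT4H1 siRNA against 15.8 FPKM after control siRNA.

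The feedback genes were split. PPM1D, the WIP1 phosphatase that reverses damage signalling, stood at 5.28 and 5.51 FPKM in line 1 and 4.32 and 4.66 FPKM in line 2 after SUPT4H1 siRNA, against 4.34 and 4.28 FPKM in line 1 and 3.62 and 3.43 FPKM in line 2 after control siRNA, a log2 change of 0.27 (adjusted p = 3.08e-04, limma). FBXW7, the substrate receptor of an SCF ubiquitin ligase, averaged 6.29 ± 0.36 FPKM after SUPT4H1 siRNA and 5.05 ± 0.841 FPKM after control siRNA (SD, n = 4 each), a log2 change of 0.28 (adjusted p = 0.00375, limma). For both genes the SUPT4H1 siRNA samples were the higher ones within each line. By line, FBXW7 passed in line 2, at 0.39, and not in line 1, at 0.16 (adjusted p = 0.0568, limma).

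MDM2 (chr12:69201952-69239324 in hg19), the main negative regulator of p53, stood at 21.4 and 21.2 FPKM in line 1 and 18.3 and 17.8 FPKM in line 2 after SUPT4H1 siRNA, against 19.9 and 20.2 FPKM in line 1 and 17 and 17.6 FPKM in line 2 after control siRNA. The rise of 0.07 on the log2 scale passed narrowly (adjusted p = 0.0366, limma), and it passed in 8 of the 18 alternatives tried, with the adjusted p reaching 0.708 without the line as block. Leaving out any of the 4 samples of line 1, the first control sample of line 2 or the first SUPT4H1 siRNA sample of line 2 ended the call. MDM2 passed in neither line taken alone (adjusted p = 0.0753 in line 1 and 0.152 in line 2, limma). MDM4, its partner, had the lowest level of the 31 targets. It stood at 2.59 and 2.74 FPKM in line 1 and 1.64 and 1.62 FPKM in line 2 after SUPT4H1 siRNA, against 2.76 and 2.75 FPKM in line 1 and 1.88 and 1.93 FPKM in line 2 after control siRNA, a log2 change of -0.09 (adjusted p = 0.0968, limma).

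GDF15, a secreted stress cytokine of the TGF-beta family, depended on the line more than on the siRNA. It stood at 31.3 and 30.4 FPKM in line 1 and 18.1 and 19.8 FPKM in line 2 after SUPT4H1 siRNA, against 29.6 and 28.7 FPKM in line 1 and 19.97 and 21.4 FPKM in line 2 after control siRNA. The SUPT4H1 siRNA samples were higher in line 1 and lower in line 2, and the log2 difference over both lines was -0.02 (95% interval -0.13 to 0.08).

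The number of targets that passed depended on the line as block. Without it, as the series design groups the samples, 8 targets rose, with the same log2 changes, while 3.56% of all genes tested rose and 1.78% fell. The 8 were BTG2, PLK2, TRIAP1, RRM2B, POLH, SESN1, FDXR and C12orf5. Scaling the libraries by the median of ratios gave 17 risen and 3 fallen targets, the fallen ones being TNFRSF10B, DDB2 and MDM4. Under that scaling 20.6% of all genes tested rose and 20.1% fell, so that rises made up 50.6% of the calls, against 63.8% on the deposited scale.

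Taken line by line, 16 targets rose and none fell in line 1, where 19% of all genes tested rose and 11.7% fell. No target was below 0 at an unadjusted p under 0.05 in line 1 (limma). In line 2, 17 targets rose and MDM4 fell, where 26.9% of all genes tested rose and 15.9% fell. There were 13 targets that rose in both lines, as did 13.6% of all genes tested. Of the targets called over both lines, GADD45A, FAS and FBXW7 passed in line 2 only, SESN2 in line 1 only and MDM2 in neither. For 18 targets both SUPT4H1 siRNA samples lay above both control samples in each line, an order found in 28.8% of all genes tested, and for 2 targets both lay below, an order found in 16.6%. The median log2 change of the 31 targets was 0.14 in line 1 and 0.20 in line 2, against 0.03 and 0.04 for all genes tested.

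The difference between the lines passed the test for 6 targets, and for 9.87% of all genes tested. PLK2 rose by 0.41 in line 1 and 0.85 in line 2 on the log2 scale, a difference of -0.44 (SE 0.04, adjusted p = 2.92e-04 in limma). TP53I3 rose by 0.33 in line 1 and 0.82 in line 2 (difference -0.49, adjusted p = 0.00518, limma), and BTG2 by 0.40 in line 1 and 0.78 in line 2 (difference -0.38, adjusted p = 0.0177, limma). These 3 had the largest changes of the set, and line 2 showed the larger rise in each. SESN2 was the other way round, with 0.30 in line 1 and 0.06 in line 2 (difference 0.23, adjusted p = 0.0253, limma). TP53INP1, at 0.14 in line 1 and -0.06 in line 2 (adjusted p = 0.0357, limma), and ZMAT3, at 0.08 and -0.07 (adjusted p = 0.0425, limma), differed in sign between the lines. Over the 16 alternatives in which this difference could be tested, that of PLK2 passed in 16, TP53I3 in 15, BTG2 in 11, SESN2 in 9, TP53INP1 in 7 and ZMAT3 in 6. The 2 lines cannot speak for fibroblasts at large.

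**Figure D4:**
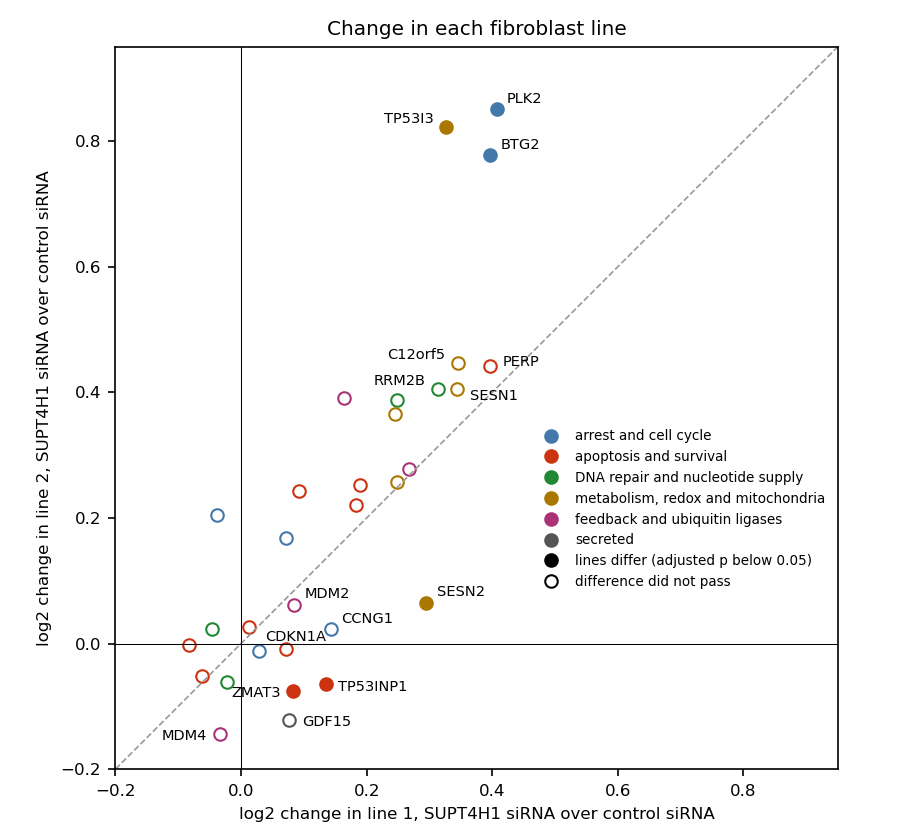
log2 change (SUPT4H1 siRNA over control siRNA) in line 1 (x axis) and line 2 (y axis) of each of the 31 genes, coloured by role. Filled points passed the test of the difference between the lines and the dashed line marks equal changes. PLK2, TP53I3 and BTG2 lie above the dashed line, and SESN2, TP53INP1 and ZMAT3 lie below it.

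What the targets share at their promoters was examined for the 26 genes found among the RefSeq windows, which have 40 starts. No window was read for GADD45A, TNFRSF10B, PHLDA3, TP53INP1 and RRM2B. A p53 half-site, searched by its consensus, which reads the same on both strands, was found in 6 of the 40 windows (15%) and in 6.63% of all 35116 windows of the same length. The 6 belong to PLK2, FAS, AEN, DDB2, SESN1 and FDXR, of which PLK2, FAS, SESN1 and FDXR rose and AEN and DDB2 did not pass. They are 4 of the 27 windows of genes that rose and 2 of the 13 windows of genes that did not pass, which are similar shares. The half-site began 132 bases before the start in PLK2, 122 in FAS, 49 in SESN1, 34 in AEN and 11 in FDXR. A full site, that is, a pair of half-sites at most 13 bases apart, was found in 10 of all windows and in 1 of the 40, that of DDB2, which did not pass. No match says only that these letters are not in the window.

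The letters GGGCGG, searched on both strands as were the next motifs, stood in 33 of the 40 windows (82.5%) and in 45% of all windows, CCAAT in 20 of the 40 (50%) and in 34.6% of all, and TATAAA in 2 of the 40 (5%) and in 11.5% of all. The windows had a median GC content of 65.7%, against 58.7% for all windows. The genes themselves ranged from 2.45 to 214 kb in span, with a median of 24.1 kb for the 18 that rose and 11 kb for the 13 that did not pass. These are descriptions, and no link with the changes was tested.

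Further lists of the pathway were counted in the same fit. Of 38 other p53 targets tested, 22 rose and 6 fell, with a median log2 change of 0.14. These are 57.9 and 15.8% of the list, beside 26.8 and 15.2% of all genes tested. Without the line as block 7 rose and 2 fell, where 3.56% of all genes tested rose and 1.78% fell. Among the largest changes were those of TNFRSF10C, a decoy receptor for TRAIL, which rose by 0.89, of THBS1, thrombospondin 1, which fell by 0.81, and of DDIT4, the mTORC1 inhibitor REDD1, which fell by 0.75. TNFRSF10C averaged 10.3 ± 2.46 FPKM after SUPT4H1 siRNA and 5.06 ± 1.27 FPKM after control siRNA (SD, n = 4 each, adjusted p = 1.45e-06 in limma), while THBS1 averaged 818.3 ± 17.6 FPKM after SUPT4H1 siRNA and 1438 ± 23.3 FPKM after control siRNA (adjusted p = 5.74e-07, limma).

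Of 30 tested genes that act upstream in the pathway, 6 rose and 9 fell, with a median log2 change of -0.004. These are 20 and 30% of the list, beside 26.8 and 15.2% of all genes tested. Without the line as block 1 rose and 1 fell, where 3.56% of all genes tested rose and 1.78% fell. The kinase CHEK2, at 0.33, was among the rises, and RPL11, a ribosomal protein that binds MDM2, at -0.29, and PPP1R13L, the p53 inhibitor iASPP, at -0.25, were among the falls. None of these 3 passed without the block (limma, adjusted p = 0.107, 0.162 and 0.689).

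Of 18 tested cell cycle genes that p53 is known to lower through p21, 11 rose and 1 fell, with a median of 0.25. These are 61.1 and 5.56% of the list, beside 26.8 and 15.2% of all genes tested. All of these calls were lost without the line as block, where 3.56% of all genes tested rose and 1.78% fell. At a mean FPKM of at least 5 only 1 of the genes could be tested. CDK1, the mitotic kinase, its partner cyclin B2 (CCNB2) and the kinase-binding protein CKS2 rose by 0.34, 0.46 and 0.51, and CKS1B, the close relative of CKS2, fell by 0.31. Without the block the adjusted p in limma was 0.144 for CDK1, 0.37 for CCNB2, 0.0702 for CKS2 and 0.0989 for CKS1B. In line 1, 2 of these 18 rose, where 19% of all genes tested did, and in line 2, 15 rose, where 26.9% of all genes did. The difference between the lines passed for 8 of them and for 9.87% of all genes tested.

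Of 19 tested genes of G1 and senescence, 3 rose and 2 fell, which is 15.8 and 10.5% of the list, beside 26.8 and 15.2% of all genes tested. CCND1, cyclin D1, rose by 0.72 (222.8 ± 102 FPKM after SUPT4H1 siRNA and 133.1 ± 57.6 FPKM after control siRNA, SD, n = 4 each), CDKN2B, the inhibitor p15, by 0.33 and CCND3, cyclin D3, by 0.26, and HMGA2, a chromatin protein, fell by 0.16. CDKN2B was at 0.53 in line 1 and 0.14 in line 2, and this difference passed (adjusted p = 0.0253, limma). Without the block CCND3 passed (adjusted p = 0.00708, limma), and CCND1, CDKN2B and HMGA2 did not (adjusted p = 0.395, 0.0645 and 0.668).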

How the data were processed

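Per the labels, RNA of 8 samples was extracted with a column kit and made into Illumina libraries for polyA RNA. The authors deposited FPKM values with interval bounds and a status for 27032 entries per sample and, per the submitters' processing notes, used the build hg19. No aligner, caller or annotation is given in the sources used here. FPKM are relative values, so a rise in abundant transcripts lowers the rest. Entries of a symbol were summed, and 1969 symbols with a locus under 200 bases were left out, which left 23299. Genes of mean FPKM at least 1 and status OK in every sample were tested, 11444 in all, including the 31 targets. FPKM summed to 288292.6 to 305680.4 per sample.

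Values were transformed to log2(FPKM + 1) and tested 2-sided in limma 3.58.1 (R 4.3.3), whose variances followed a trend with the mean. P-values were adjusted by Benjamini and Hochberg over all genes tested, with a threshold of 0.05. The main model had the siRNA and the line as block, since samples of a line share their cells: deviations of SUPT4H1 siRNA and control siRNA samples of the same line correlated at 0.883 to 0.899. A model of 4 group means gave the response of each line and their difference. The procedure was tested on simulated data. Lists and promoters were handled in pandas 2.3.3 and numpy 2.4.6 under Python 3.11.15, and plots drawn in matplotlib 3.10.9. Promoter windows are RefSeq's on GRCh38.p14. The alternatives were no block, a block of line and replicate number, a pseudocount of 0.1, no filter or a mean FPKM of at least 5, median-ratio scaling, no variance trend, array weights, other status and symbol rules, and each sample left out. Genes named are the 31 targets, SUPT4H1, SUPT5H and, from each further list, up to 4 called genes with the largest change, some of which are not reported here, besides the cell type markers and the genes that overlap FAS and POLH. The targets and lists were chosen with earlier results of these data known.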

Additional observations from a re-analysis of the deposited data

Results flagged for a closer look

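BAX in the control siRNA samples had 1 sample apart from the other 3: the second control sample of line 1 had 107.6 FPKM and the others had 100.4, 100.7 and 101 FPKM. Its gap to the nearest value was 0.917 of the range, above Dixon's 95% limit for 4 samples. It was the only one of 62 groups examined. Chance marks about 1 group in 20 where the 4 values are alike in origin, but each group here pools 2 samples of each line, so that rate need not hold.

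For 6 targets the response differed between the lines by the limma test of the difference itself, given here as the log2 change in line 1 minus that in line 2. It was -0.495 for TP53I3, -0.443 for PLK2 and -0.381 for BTG2, which rose more in line 2. It was 0.23 for SESN2, 0.201 for TP53INP1 and 0.158 for ZMAT3, which were higher in line 1. Neither depth nor any other feature of the lines was set against these differences.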

How the results depend on the processing

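Of the 18 targets called, 17 passed in every alternative that tested them apart from the fit without the line, and 8 passed in all. Apart from that fit, 17 to 19 targets rose, and the median log2 change of the 31 ran from 0.135 to 0.175. With no replicate block, 8 targets rose, and over all genes 407 rose and 204 fell. In that fit 1 rose and 1 fell among the upstream genes, 7 rose and 2 fell among other targets, 0 rose and 0 fell among the cell cycle genes, and 1 rose and 1 fell among the G1 genes. With the line and replicate number together as replicate block, 17 targets rose, and over all genes 2589 rose and 1447 fell. The replicate numbers gave no pairing within a line, since same-numbered samples correlated at 0.103 in line 1 and 0.05 in line 2. Median-ratio scaling gave 3 fallen targets and placed CDKN1A at -0.026, BAX at -0.003, PHLDA3 at -0.015 and ZMAT3 at -0.029. Leaving out single samples moved ZMAT3 between -0.019 and 0.027 and GDF15 between -0.051 and 0.021. A difference between the lines passed for 1 target with no filter on FPKM, for 3 without the variance trend and for 2 to 5 without single samples. A mean FPKM of at least 5 left 1 cell cycle gene to test, so that 1 rose and 0 fell, and 1 G1 gene fell. Apart from this last case, the cause of these shifts was not tested. Missing fragment numbers, 2 samples for each siRNA and line, and 2 lines limit how small a change can be told from the spread.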
